A study of Homo sapiens with 12 samples.

Results

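Capsule cultures of AU565 cells were compared with monolayer cultures of the same line, using 6 of the 12 RNA sequencing libraries in the series, 3 a format. The libraries were chosen by their format labels alone, and every gene of the deposited count table entered the comparison. AU565 is an established human breast carcinoma line of epithelial origin, wild type per its label, in which ERBB2 is amplified. Both formats carry an identical treatment label: liquid overlay and 5% matrigel, following trastuzumab (an antibody that binds the ERBB2 receptor), with 96 h of incubation. The controls therefore had the antibody and the matrix too, and no untreated library was used here. How a capsule was made and whether replicates were separate cultures are not stated, so p-values reflect the scatter among these libraries, which could be technical. Titles of the monolayer libraries contain the letters UP and those of the capsule libraries do not. What UP marks is not given, so the culture format and whatever UP stands for cannot be told apart. Where a capsule level is placed against another cluster culture, the 3 small spheroid libraries, which share the treatment label and also lack UP, were tested in the same fit.

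Cells on a flat surface spread and meet the medium evenly, whereas cells held in a shell or gel grow as aggregates in which contact, oxygen and nutrients vary with depth. Before DNA synthesis, E2F factors, which the RB1 protein restrains, switch on replication genes, and genes of mitosis follow later through a promoter element called the CHR. Luminal breast cells secrete milk-type and mucosal proteins. The respiratory chain is assembled from subunits of the nuclear and of the mitochondrial genome.

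Capsule libraries held 14148600 to 15742541 counts and monolayer libraries 17216660 to 24729250. The first principal component of the 6 libraries took 79.4% of the variance and separated the formats, and the second, with 8.19%, set capsule replicate 1 (36.98) apart from replicates 2 (-17.54) and 3 (-15.85). Capsule replicate 1 differed from the other capsule libraries by a chi-square of 39.13 and 34.56 per gene, against 2.993 between replicates 2 and 3 and 3.869 to 7.657 among monolayer libraries. Its column in the table also spells the format differently from the other capsule columns. Values without it are given wherever a call or a fold moved by over 1.5 times. Log2 fold changes rose with the GC content of the gene (Spearman rho 0.43 across genes, which are not independent replicates) and fell with transcript length (rho -0.33), with a median of -0.44 in the fifth of genes poorest in GC and 0.58 in the richest. A correction for both is therefore quoted, as the GC-corrected value, for named genes where it ends or turns a call or moves the fold by over 1.5 times, and for lists where it shifts the balance of calls. Luminal markers were abundant in all 6 libraries, summing to 15080 to 16520 CPM (counts scaled to library size by TMM) in monolayer and 17710 to 23910 in capsule, although CDH1, the epithelial cadherin, had 88 counts in monolayer and 2 in capsule, both in replicate 1.

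Most genes differed between the formats. At an adjusted p below 0.05, 10013 of 15175 genes tested (66.0%) passed, of which 5230 (34.5%) were higher and 4783 (31.5%) lower in capsule. A change of at least 2-fold was found for 3411 genes (22.5%), 2047 up and 1364 down, and the libraries of the formats did not overlap for 10131 genes (66.8%). After GC correction 4756 genes (31.3%) were higher and 4864 (32.1%) lower, and 3146 of the 3411 kept their call and direction. Over all genes the log2 fold change had a median of 0.04. A list of genes is read against that median and those shares, without a test of the list.

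**Figure D1:**
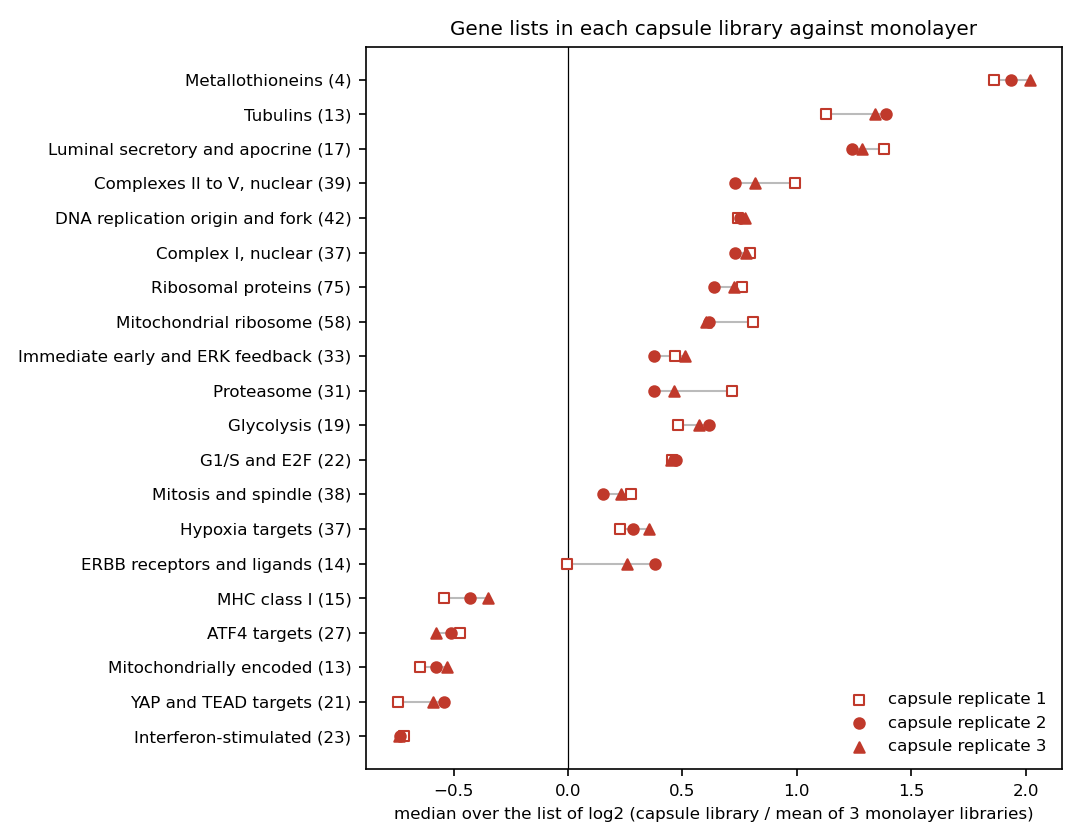
Median log2 ratio of each capsule library to the mean of the 3 monolayer libraries (x axis), for lists of related genes (y axis, number of genes tested in brackets). Open squares, filled circles and triangles are capsule replicates 1, 2 and 3, and bars join them. The replication list lies at 0.742 to 0.772 and the mitochondrially encoded list at -0.648 to -0.527.

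The genes that copy DNA were higher in capsule. Of 42 tested genes of the origin and fork, 33 rose, 3 fell and 6 did not pass, with a median log2 fold change of 0.76. UHRF1, which reads hemimethylated DNA behind the fork, is outside this list. It belongs to a DNA methylation list of 10 tested genes, of which 4 rose and 4 fell (median -0.27). GC-corrected, 4 of that list rose and 3 fell (median 0.08). UHRF1 stood at 6.36, 5.16 and 5.19 CPM in monolayer replicates 1 to 3 and 21.7, 26.0 and 24.1 in the 3 capsule libraries. All capsule values lay above all monolayer values (log2 fold change 2.11 ± 0.13, SE, adjusted p = 4.89e-10). GINS2, a subunit of the replicative helicase complex chosen after its values were seen, had 3.37, 3.93 and 2.89 CPM in monolayer and 14.4, 10.9 and 10.3 in capsule (log2 fold change 1.80 ± 0.17, adjusted p = 6.96e-08). MCM3, a subunit of the helicase ring, had 29.1, 29.3 and 30.3 and 72.1, 82.0 and 76.1 CPM (log2 fold change 1.38 ± 0.08, adjusted p = 2.16e-10). In each of these genes the formats were clearly apart, and the spread among capsule libraries was small beside the gap. The other ring subunits shown here moved the same way, with log2 fold changes of 0.98 for MCM2, 1.33 for MCM5, 0.93 for MCM6 and 1.10 for MCM7, all with SE of 0.10 or less.

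Promoters of 3 of these genes are printed because E2F factors are known regulators of replication genes. Shown are the 250 bases before the RefSeq start (GRCh38.p14), 5′ to 3′ on the gene's strand, with matches to TTTCCCGC, TTTGGCGC, TTTCGCGC or TTTGCCGC on either strand in capitals. UHRF1 is at chr19:4909251-4909500 (plus strand), GINS2 at chr16:85688955-85689204 (minus strand) and MCM3 at chr6:52284743-52284992 (minus strand).
UHRF1: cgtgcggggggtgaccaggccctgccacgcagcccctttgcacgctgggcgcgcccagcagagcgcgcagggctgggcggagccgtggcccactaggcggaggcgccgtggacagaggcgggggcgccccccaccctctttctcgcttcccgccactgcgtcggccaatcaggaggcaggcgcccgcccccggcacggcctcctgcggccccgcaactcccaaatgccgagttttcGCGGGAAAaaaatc
GINS2: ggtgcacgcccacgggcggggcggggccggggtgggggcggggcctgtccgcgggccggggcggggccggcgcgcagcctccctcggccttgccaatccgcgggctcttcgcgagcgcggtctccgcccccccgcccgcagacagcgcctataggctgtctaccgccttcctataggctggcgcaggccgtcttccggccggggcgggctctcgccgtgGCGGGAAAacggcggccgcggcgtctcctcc
MCM3: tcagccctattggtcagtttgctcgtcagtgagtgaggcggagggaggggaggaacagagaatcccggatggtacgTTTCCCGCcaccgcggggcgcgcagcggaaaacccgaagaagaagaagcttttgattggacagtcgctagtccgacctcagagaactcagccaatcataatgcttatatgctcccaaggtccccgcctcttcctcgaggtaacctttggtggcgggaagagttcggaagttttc
The match begins 14 bases before the start of UHRF1, 31 before that of GINS2 and 174 before that of MCM3. Such a match was found in 2.79% of all 27305 RefSeq promoters of this length and in 4.4% of those of genes tested, against 11 of the 35 replication genes with an entry (31.4%), 6 of 16 G1/S genes (37.5%) and 2 of 33 mitosis genes (6.06%). Of the 11 replication genes with a match 10 rose, with a median of 0.93, and of the 24 without one 18 rose and 1 fell, with a median of 0.91. A match describes letters only, and replication genes with and without one had nearly equal medians.

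A loading factor and the sliding clamp rose as well, with capsule replicate 1 highest for both. CDC6, which loads the helicase, had 223, 224 and 249 CPM in monolayer and 559, 407 and 413 in capsule (log2 fold change 0.99 ± 0.11). PCNA, the clamp of the polymerases, had 57.4, 56.0 and 59.4 and 149.7, 103 and 111 CPM (log2 fold change 1.07 ± 0.12). Both were chosen after their values were seen, and without capsule replicate 1 they stood at 0.82 and 0.89. CDT1, the partner of CDC6, rose by 0.74 (adjusted p = 0.000717) with capsule replicate 1 lowest of its format, but its GC-corrected value was 0.06 (adjusted p = 0.659). The 3 genes that fell were PRIM2, a primase subunit (-0.74 ± 0.13), DSCC1, which helps join sister chromatids at the fork (-0.44 ± 0.10), and GINS4 (-0.33 ± 0.13, adjusted p = 0.0302). The call of GINS4 was lost without capsule replicate 1 (-0.23), without monolayer replicate 1 (-0.35) or 3 (-0.29) and after GC correction (-0.28). The whole list had a GC-corrected median of 0.59, with 31 genes up and 2 down, and without capsule replicate 1 its median was 0.77.

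Genes of the step into S phase changed alongside. Of 22 G1/S genes, 13 rose and 3 fell, with a median of 0.45. E2F2, an activating E2F, had 3.70, 3.58 and 4.09 CPM in monolayer and 12.4, 19.7 and 16.3 in capsule (log2 fold change 2.09 ± 0.18, adjusted p = 2.32e-08), and E2F1 rose by 1.34 (0.76 GC-corrected). The levels of E2F2 did not overlap, and capsule replicate 1 was the lowest of its format. CDC25A, a phosphatase that activates CDK2, and CCNE1, its cyclin partner, rose by 1.10 and 0.99 (both chosen after their values were seen). RB1, which holds E2F factors in check, was among those that fell, from 91.4, 89.2 and 87.3 to 34.8, 31.6 and 33.5 CPM (log2 fold change -1.42 ± 0.10, adjusted p = 2.17e-09). The lowest log2 fold change on the G1/S list was that of another member, at -2.455. Among 8 genes of CDK inhibitors 5 rose and 1 fell: CDKN2A rose by 1.36 ± 0.08 (0.60 GC-corrected) and CDKN2C by 1.60 ± 0.14. CDKN1A, a p53 target, had 8.62, 8.47 and 9.41 CPM in monolayer and 20.4, 12.7 and 11.2 in capsule, where replicate 1 was highest. Its log2 fold change was 0.75 ± 0.19 (adjusted p = 0.00198), and 0.38 (adjusted p = 0.0936) GC-corrected.

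Genes of mitosis moved less. Of 38 tested, 20 rose, 3 fell and 15 did not pass, with a median of 0.25, and the difference between this list and the replication list was not tested. CCNB1, the mitotic cyclin, had 90.3, 91.4 and 91.3 CPM in monolayer and 173, 132 and 143 in capsule (log2 fold change 0.72 ± 0.10, adjusted p = 6.6e-06). BIRC5, of the chromosomal passenger complex, rose by 1.14 ± 0.10, and CENPA, the centromeric histone, by 1.20 ± 0.14 (chosen after its values were seen). Capsule libraries of all 3 genes lay above every monolayer library. MKI67, a coat protein of mitotic chromosomes used as a marker of cycling cells, had 191, 185 and 196 CPM in monolayer and 147, 209 and 182 in capsule. TOP2A, which untangles DNA before division, had 572, 589 and 609.6 and 714, 583 and 571. Formats overlapped for both, with log2 fold changes of -0.09 ± 0.10 (adjusted p = 0.467) and 0.08 ± 0.10 (adjusted p = 0.489). The GC correction moved them to 0.25 (adjusted p = 0.0141) and 0.51 (adjusted p = 2.23e-06).

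The 3 mitosis genes lower in capsule depended on the GC correction. HMMR, a spindle protein, had 45.4, 45.8 and 45.7 CPM in monolayer and 36.2, 33.4 and 31.1 in capsule (log2 fold change -0.44 ± 0.08, GC-corrected -0.05). KIF14, a kinesin of cytokinesis, fell from 46.1, 45.6 and 47.3 to 36.4, 32.1 and 29.4 CPM (-0.50 ± 0.09, GC-corrected 0.04). ASPM, a spindle pole protein, changed by -0.27 ± 0.11 (adjusted p = 0.0306) and by 0.40 after the correction, a call in the opposite direction. Without capsule replicate 2 or 3, or monolayer replicate 1 or 3, ASPM was not called (-0.27 to -0.17). After the correction the list had 27 genes higher and 1 lower, with a median of 0.37, and 19 rose and 6 fell without capsule replicate 1.

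The CHR, TTTGAA on either strand, is printed for MKI67 (chr10:128126424-128126673, minus strand), the marker whose level did not pass the test, over the same window of 250 bases.
MKI67: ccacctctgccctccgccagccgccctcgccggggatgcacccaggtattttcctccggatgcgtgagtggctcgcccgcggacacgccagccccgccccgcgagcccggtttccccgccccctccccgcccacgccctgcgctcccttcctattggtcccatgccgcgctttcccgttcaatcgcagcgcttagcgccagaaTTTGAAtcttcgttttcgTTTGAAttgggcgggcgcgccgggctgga
Matches begin 47 and 29 bases before the start. A CHR match lay in 13.6% of all promoters and 8.62% of those of genes tested. It lay in 17 of 33 mitosis genes (51.5%) and in none of 35 replication genes. Of the 17 mitosis genes with a match 6 rose and 2 fell (median 0.08), and of the 16 without one 11 rose and 1 fell (median 0.50).

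Against small spheroids, both lists were higher in capsule by larger margins, where 27.0% of all genes tested were higher and 25.0% lower. Of the replication genes 37 of 42 were higher in capsule (median log2 difference 0.91), and of the mitosis genes 37 of 38 were (median 1.30). Log2 differences from small spheroids fell with GC content (Spearman rho -0.5 across genes), and values against small spheroids are uncorrected unless stated. GC-corrected, all 42 replication genes (median 0.80) and all 38 mitosis genes (median 1.10) were higher, beside 23.9% of all genes higher and 22.1% lower. MKI67 stood at 84.8, 83.0 and 85.8 CPM in small spheroids, below every capsule library (1.08 ± 0.11, adjusted p = 5.78e-07). HMMR, lower in capsule than in monolayer, was at 9.67, 9.09 and 9.18 CPM in small spheroids and higher in capsule by 1.85 ± 0.10 on the log2 scale. CLSPN, a checkpoint mediator at the fork chosen after its values were seen, had 16.9, 15.4 and 14.6 CPM in monolayer, 38.1, 33.9 and 33.8 in capsule and 10.5, 9.85 and 9.49 in small spheroids, so capsule was the highest of these 3 formats. RB1 was lowest in small spheroids (24.4, 22.4 and 25.2 CPM), with capsule above it by 0.47 ± 0.10 (adjusted p = 0.00115), a difference of 0.06 after GC correction.

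**Figure D2:**
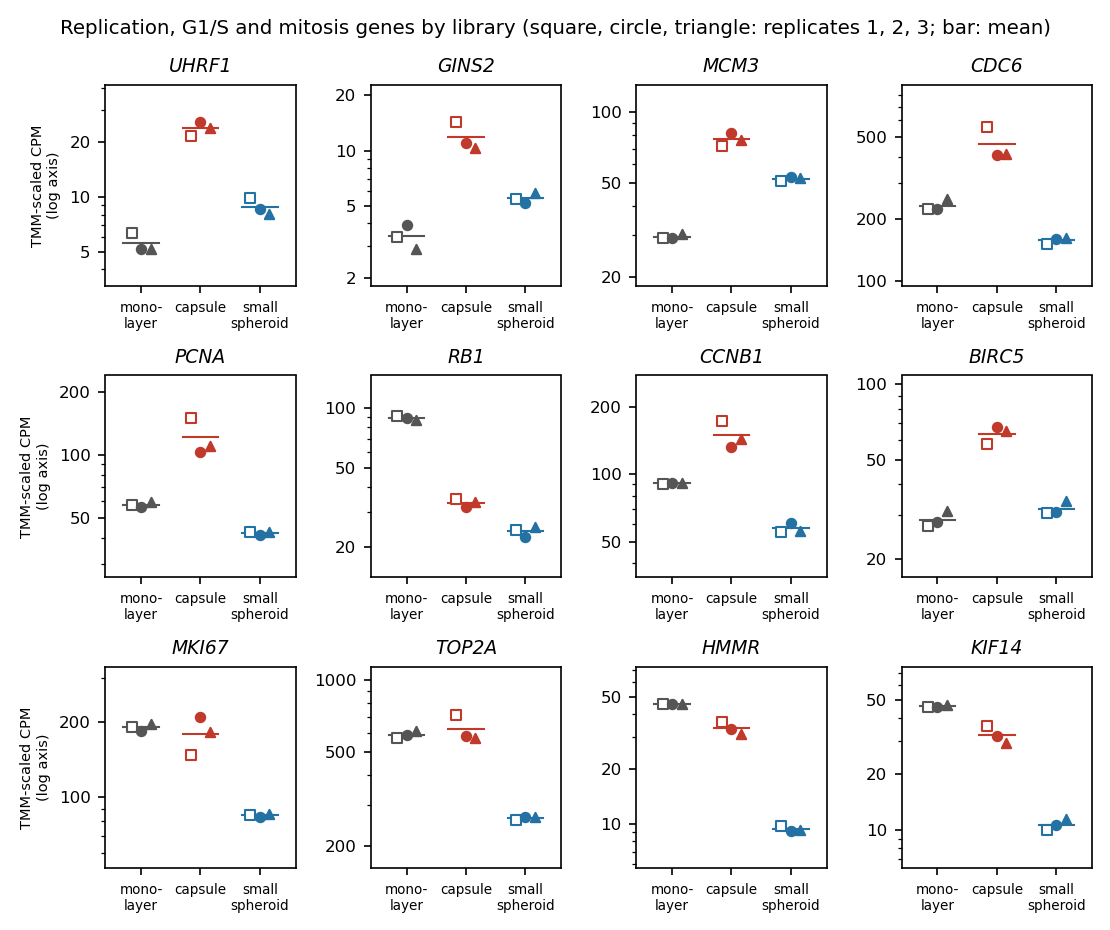
TMM-scaled CPM on log axes in each monolayer, capsule and small spheroid library, for genes of replication, G1/S and mitosis (one panel a gene). Square, circle and triangle are replicates 1, 2 and 3, and the line is the mean. UHRF1 is highest in capsule, whereas MKI67 and TOP2A overlap between monolayer and capsule and are lower in small spheroids.

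Nuclear and mitochondrial genes of the respiratory chain moved in opposite directions. Of 37 nuclear complex I genes 30 rose and 2 fell (median 0.74), and of 39 nuclear genes of complexes II to V 31 rose and 8 did not pass (median 0.84). Of the 13 mitochondrially encoded genes 10 fell, 1 rose and 2 did not pass (median -0.52). Together the 13 genes took 4.67%, 4.9% and 4.32% of all counts in the monolayer libraries and 2.54%, 2.72% and 2.73% in the capsule libraries, so their share was lower in each capsule library. GC-corrected medians were 0.43 for complex I, with 25 up, 0.66 for complexes II to V, with 31 up and 3 down, and -0.90 for the mitochondrial genes.

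NDUFA13, an accessory subunit of complex I, had 105, 113 and 129 CPM in monolayer and 431, 367 and 386 in capsule (log2 fold change 1.77 ± 0.10, adjusted p = 1.78e-10, GC-corrected 0.95). ATP5ME, a subunit of the ATP synthase, had 29.0, 33.4 and 26.0 and 107, 124 and 149 CPM (2.10 ± 0.12, GC-corrected 1.34). UQCR10, of complex III, had 45.2, 50.2 and 48.8 and 161, 132 and 132 CPM (1.56 ± 0.09). Each was higher in every capsule library. UQCC3, an assembly factor of complex III and not a member of the list, had one of the 12 highest fold changes of all abundant genes, with 3.04, 3.70 and 2.80 CPM in monolayer and 59.8, 65.3 and 70.5 in capsule (4.34 ± 0.11, adjusted p = 1.45e-13). The complex I genes that fell were NDUFS1, the largest core subunit (-0.46 ± 0.09, GC-corrected 0.05), and NDUFB5 (-0.44 ± 0.14). For NDUFB5 the formats overlapped, since capsule replicate 1 had 153 CPM and replicates 2 and 3 had 98.0 and 100.1, against 142, 157 and 177 in monolayer. Its call was lost after GC correction (-0.15) and without capsule replicate 2 (-0.32) or 3 (-0.34) or monolayer replicate 3 (-0.36).

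The size of the change varied widely among the mitochondrial genes. ND4L had 1593, 1696 and 1348 CPM in monolayer and 277, 365 and 354 in capsule (-2.22 ± 0.11, adjusted p = 7.89e-11). ND1 had 2086, 2328 and 2209 and 675, 736 and 745 CPM (-1.62 ± 0.08), and ND2 3978, 4270.5 and 4083 and 1334, 1406 and 1416 (-1.57 ± 0.08). All 3 encode membrane subunits of complex I and fell by at least 2-fold in every capsule library. Smaller decreases were measured for COX1 (-0.84 ± 0.09), COX2 (-0.50 ± 0.07), ND4 (-0.82 ± 0.09) and CYTB (-0.44 ± 0.08). ND6, the only protein gene on the light strand, rose from 804, 809 and 751 to 1265, 1451 and 1507 CPM (0.84 ± 0.09, adjusted p = 2.16e-07). ATP8 (0.10 ± 0.09, adjusted p = 0.367) and ND3 (0.19 ± 0.08, adjusted p = 0.0507) did not pass the test; ND3 passed with limma-voom, and without capsule replicate 1 or 2 or monolayer replicate 2. The table gives no strand setting, so reads of ND6 and of transcripts from the opposite strand there cannot be told apart, and ND4L overlaps ND4.

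Against small spheroids 11 of the 13 mitochondrial genes were lower in capsule (median -0.97), and all 13 were GC-corrected (median -1.34). ND6 was above monolayer and below small spheroids (2429.9, 2344 and 2734 CPM, -0.83 ± 0.09). ND1 stood at 2936, 2651 and 3263 CPM there, a log2 difference of -2.04 ± 0.09. Nuclear complex I genes were higher in capsule than in small spheroids in 22 cases and lower in 6 (median 0.37), or 17 and 3 GC-corrected (median 0.21). NDUFA13 was higher by 0.41 ± 0.09.

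Genes of both kinds of ribosome rose as well. Of 75 cytosolic ribosomal protein genes 62 rose and 3 fell (median 0.74), and of 58 mitochondrial ribosome genes 45 rose and 6 fell (median 0.67). MRPL54, of the large mitochondrial subunit, had 4.87, 4.58 and 4.64 CPM in monolayer and 30.9, 26.0 and 29.7 in capsule (2.62 ± 0.13, GC-corrected 1.72). RPL27 of the cytosolic ribosome had 292, 298 and 311 and 829, 736 and 773 CPM (1.38 ± 0.09). Neither gene overlapped between formats. RPS26 moved the other way, from 40.0, 38.8 and 34.8 to 15.9, 16.6 and 19.6 CPM (-1.12 ± 0.10, chosen after its values were seen), and reads of its many processed copies may be split by the counting. The median transcript of these lists was 1826 and 1711.5 bases long, against 3498 over all genes, and the GC and length correction lowered their medians to 0.52 and 0.37. MRPL41 shows the size of that step, at 2.07 ± 0.08 before and 0.47 after it. Against small spheroids the cytosolic list was split, with 14 genes higher and 16 lower in capsule, but 3 higher and 22 lower GC-corrected.

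**Figure D3:**
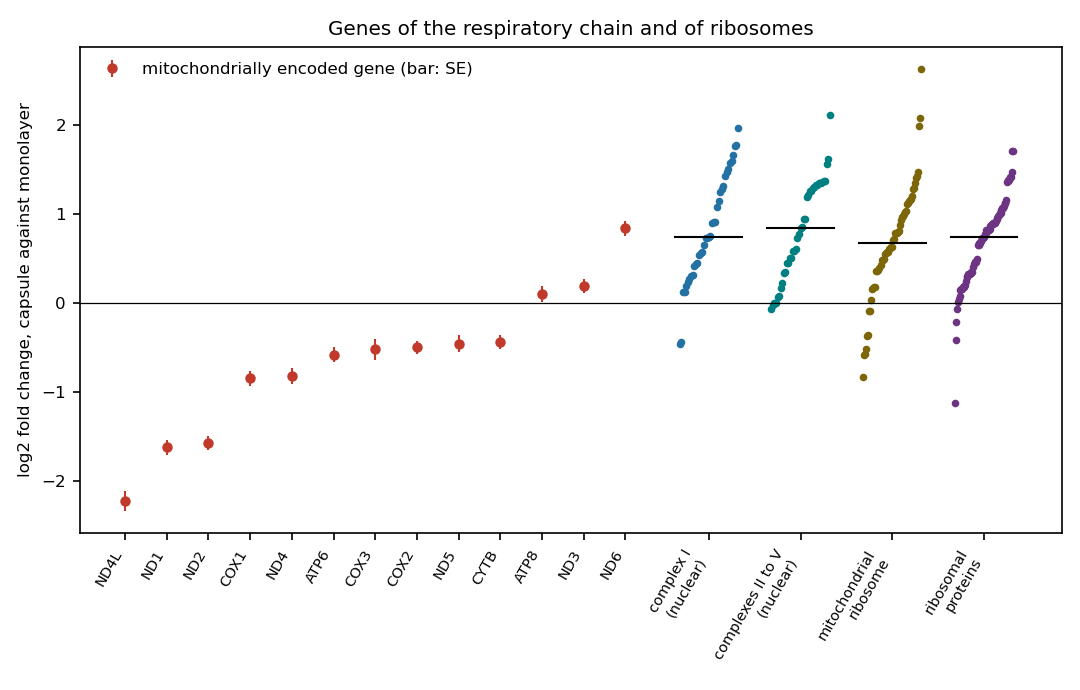
Log2 fold change of capsule against monolayer (y axis) for each mitochondrially encoded gene (red, bar is the SE) and for all tested genes of the nuclear respiratory and ribosomal lists (dots, black line is the median). The 10 mitochondrial genes that fell lie below 0, ND6 lies above it, and the nuclear medians lie between 0.67 and 0.84.

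Secretory genes of luminal and apocrine breast cells were higher in capsule. Of 17 tested, 12 rose and 1 fell, with a median of 1.27, and 11 rose and 3 fell GC-corrected. SCGB2A2 (mammaglobin-A) had 40.6, 40.2 and 41.7 CPM in monolayer and 1172, 1081 and 1119 in capsule (4.78 ± 0.15), and its partner SCGB1D2 had 2.10, 2.43 and 2.16 and 57.3, 67.4 and 71.5 (4.86 ± 0.20, adjusted p = 1.5e-11). AGR2, a disulfide isomerase of mucus-making cells, had 199, 186 and 184 and 1477, 958 and 995 CPM (2.59 ± 0.16, adjusted p = 6.55e-10). TFF3, a trefoil peptide chosen after its values were seen, had 1.38, 1.58 and 1.97 and 8.79, 13.7 and 12.7 CPM (2.82 ± 0.24). Every capsule library exceeded every monolayer library in these 4 genes. LRRC26, a potassium channel subunit of secretory epithelium outside the list, was among the 12 highest of all, at 9.01, 6.62 and 5.65 and 83.3, 146 and 163 CPM (4.21 ± 0.32, GC-corrected 2.27).

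PIGR, which carries IgA across secretory epithelium, was the member that fell, from 172, 187 and 195 to 27.8, 41.8 and 39.4 CPM (-2.35 ± 0.13, adjusted p = 1.63e-10). MUC1, an apical mucin, changed direction with the correction: it had 59.2, 64.4 and 64.2 CPM in monolayer and 65.0, 115 and 119.7 in capsule, a log2 fold change of 0.67 ± 0.16, and -0.54 GC-corrected. Small spheroids held more of most of these transcripts. Against them 10 of the 17 were lower in capsule and 4 higher (median -0.67): TFF3 at 38.9, 58.9 and 40.7 CPM differed by -1.98 ± 0.19 and MUC1 at 414, 371 and 410.4 CPM by -2.0 ± 0.16. AGR2 and PIGR departed from that pattern. AGR2 was lower in small spheroids (382, 489.7 and 403 CPM, capsule higher by 1.43 ± 0.15), and PIGR stood near its monolayer level there (179, 158 and 175 CPM, capsule lower by -2.23 ± 0.13, adjusted p = 2.95e-09).

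The ERBB receptors themselves changed little. ERBB2 had 7463, 7347 and 8149 CPM in monolayer and 7745, 11139 and 10735 in capsule, where replicate 1 overlapped the monolayer range (log2 fold change 0.37 ± 0.11, adjusted p = 0.00691). GC-corrected it was 0.18 (adjusted p = 0.0578). ERBB3 (-0.09 ± 0.08, adjusted p = 0.311) and EGFR (0.04 ± 0.10, adjusted p = 0.733) did not pass, although EGFR passed without capsule replicate 1 (0.18) and GC-corrected (0.37). GRB7, the neighbour of ERBB2 in the amplicon, was at 0.05 ± 0.08 and GC-corrected at -0.42 (adjusted p = 4.46e-06). Over the 14 tested receptor and ligand genes 7 rose and 2 fell, with a median of 0.20.

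Ligands and feedback genes of the pathway changed more. EPGN, which encodes the EGFR ligand epigen, had 0.719, 0.577 and 0.735 CPM in monolayer and 16.7, 4.82 and 3.73 in capsule, with capsule replicate 1 far above the others (3.64 ± 0.48, and 2.66 without it). AREG, which encodes amphiregulin, rose from 0.663, 0.962 and 1.24 to 3.16, 2.34 and 2.82 CPM (1.52 ± 0.27, chosen after its values were seen). NRG1, which encodes the ERBB3 ligand neuregulin, had 77 counts over the monolayer libraries and 0 over the capsule libraries, so it was at least 17.4-fold lower against a limit of 3 counts over the format. ERRFI1, a feedback inhibitor of these receptors, rose by 1.29 ± 0.14.
Of 33 immediate early and ERK feedback genes 17 rose and 6 fell (median 0.52, GC-corrected 0.21). KLF2, a zinc-finger factor, had 0.663, 0.539 and 0.827 CPM in monolayer and 8.98, 13.8 and 16.2 in capsule (4.26 ± 0.28, GC-corrected 3.40), and SPRY4, an inhibitor of the RAS and ERK cascade, had 21.6, 22.9 and 22.6 and 60.6, 63.3 and 54.3 (1.41 ± 0.08). The ETS factors ETV4 and ETV5, both known ERK targets, went opposite ways, ETV4 by 2.13 ± 0.11. ETV5, chosen after its values were seen, changed by -3.41 ± 0.59 from 1.99, 2.58 and 1.33 CPM to 0.253, 0.0688 and 0.211. Both ETV5 and NRG1 were close to absent in capsule and small spheroid libraries, and their lowest monolayer library was replicate 3. Summed melanocyte, cardiac and mesenchymal markers, described below, were also lowest there among monolayer libraries. The part of such cells in the decreases of ETV5 and NRG1 was not tested.

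Amino acid response genes were lower in capsule. ATF4 is the factor that turns them on when amino acids are short. Of 27 genes on the list of its targets, ATF4 itself included, 18 fell and 3 rose, with a median of -0.45 and 20 falling GC-corrected (median -0.70). SLC7A11, the cystine importer, had 54.2, 60.7 and 61.4 CPM in monolayer and 14.6, 9.49 and 7.88 in capsule (-2.46 ± 0.18, GC-corrected -1.75, adjusted p = 4.27e-09). ASNS, asparagine synthetase, had 150.3, 174 and 178 and 68.0, 52.8 and 50.5 CPM (-1.55 ± 0.11), and PSAT1, of serine synthesis, 89.1, 105 and 96.9 and 44.0, 41.3 and 37.1 (-1.25 ± 0.09). No capsule library reached the lowest monolayer library in these 3 genes. CTH and CBS, which make cysteine from methionine, changed by -1.69 ± 0.14 and -1.31 ± 0.13, and CHAC1, which degrades glutathione, by -1.59 ± 0.24 (-2.29 GC-corrected; all 3 chosen after their values were seen). ATF4 itself was at 327, 345 and 335 CPM in monolayer and 336, 309 and 311 in capsule (-0.08 ± 0.07, adjusted p = 0.338, GC-corrected -0.47, adjusted p = 1.24e-05).

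Of the 3 members that rose, ATF3, a stress-induced factor, had 10.4, 9.97 and 10.1 CPM in monolayer and 32.4, 13.3 and 15.7 in capsule (1.02 ± 0.22, and 0.52 without capsule replicate 1, the highest). TRIB3, a pseudokinase that feeds back on ATF4, rose by 0.21 ± 0.07 (adjusted p = 0.0146) and was -0.26 GC-corrected, a call the other way. Small spheroids had more of this group, with 19 members lower in capsule (median -0.76). CBS stood at 30.3, 25.1 and 31.5 CPM there (-2.67 ± 0.13) and CHAC1 at 31.0, 17 and 25.4 (-2.68 ± 0.23), so capsule had the lowest level of the 3 formats for both. SLC7A11, at 13.4, 8.63 and 14.8 CPM in small spheroids, did not differ beyond the spread (-0.20 ± 0.20, adjusted p = 0.421).
The promoter of ASNS (chr7:97872409-97872658, minus strand) is printed because its amino acid response element is a textbook site, with the match to TGATGNAA in capitals, 68 bases before the start.
ASNS: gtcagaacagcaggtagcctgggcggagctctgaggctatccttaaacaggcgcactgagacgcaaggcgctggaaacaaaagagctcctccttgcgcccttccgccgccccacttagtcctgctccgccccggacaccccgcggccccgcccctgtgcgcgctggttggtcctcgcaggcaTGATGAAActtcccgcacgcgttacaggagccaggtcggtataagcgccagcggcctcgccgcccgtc
That match was found in 3.19% of all promoters and 1.41% of those of genes tested. On this list 4 of 23 genes had it (17.4%), namely ASNS, CHAC1, FGF21 and ATF3, of which the first 3 fell and ATF3 rose.

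Metallothioneins, small proteins that bind zinc and copper, were higher in capsule than in monolayer and in small spheroids. MT1X had 0.276, 0.385 and 0.184 CPM in monolayer and 19.2, 13.6 and 15.3 in capsule (5.77 ± 0.24, adjusted p = 1.58e-11), and MT2A had 8.79, 10.5 and 8.27 and 69.0, 79.2 and 85.0 (3.08 ± 0.12, GC-corrected 2.48, adjusted p = 8.99e-12). SLC30A1, the zinc exporter under the same control, had 21.1, 16.6 and 18.8 and 34.8, 33.6 and 35.3 CPM (0.88 ± 0.11). The formats were apart in each of the 3 genes, which made 3 of the 4 tested members of this list. MTF1, the zinc-sensing factor, was the fourth and fell by 0.58 ± 0.09 on the log2 scale. Small spheroids had 2.60, 2.35 and 3.60 CPM of MT1X and 19.0, 16.1 and 18.1 of MT2A, and capsule was higher by 2.50 ± 0.18 and 2.13 ± 0.11 on the log2 scale. Large spheroids, the remaining format, share the treatment label and have UP in their titles. They held 14.8, 13.6 and 14.6 CPM of MT1X and 69.5, 58.7 and 65.4 of MT2A, so capsule differed from them by 0.16 ± 0.15 (adjusted p = 0.358) and 0.27 ± 0.10 (adjusted p = 0.0287), and the high levels of both genes were not particular to capsule. The comparison with large spheroids was added after its values were seen. Reads of near-identical metallothionein copies can be split by the counting, so the single-gene values are uncertain.
Their promoters are printed to show the metal response element, TGCACNC or TGCGCNC on either strand, for MT1X (chr16:56682220-56682469) and MT2A (chr16:56608334-56608583), both on the plus strand.
MT1X: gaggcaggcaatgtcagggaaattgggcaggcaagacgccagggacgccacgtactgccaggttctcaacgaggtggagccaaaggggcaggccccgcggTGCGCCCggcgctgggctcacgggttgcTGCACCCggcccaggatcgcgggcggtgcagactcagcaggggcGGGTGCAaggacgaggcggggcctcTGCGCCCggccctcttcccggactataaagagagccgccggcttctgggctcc
MT2A: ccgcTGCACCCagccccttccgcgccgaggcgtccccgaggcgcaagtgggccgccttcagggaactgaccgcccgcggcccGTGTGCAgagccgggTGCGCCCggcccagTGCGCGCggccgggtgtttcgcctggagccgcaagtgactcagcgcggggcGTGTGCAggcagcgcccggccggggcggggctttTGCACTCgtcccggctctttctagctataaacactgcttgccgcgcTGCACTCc
MT1X has 4 matches and MT2A has 7, while SLC30A1 has 1 and MTF1 none. The element is short, and at least 1 match lay in 24.7% of all promoters and 32.7% of those of genes tested.

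Tubulin and proteasome genes rose as groups. Of 13 tubulins 11 rose and 1 fell (median 1.33, GC-corrected 0.86). TUBA1B, an alpha-tubulin of dividing cells, had 327, 326 and 360.1 CPM in monolayer and 984, 992 and 1000.5 in capsule (1.55 ± 0.08, adjusted p = 1.78e-10), and TUBB4B rose by 1.27 ± 0.09. The exception was TUBD1, the delta-tubulin of centrioles (-0.52 ± 0.14). Of 31 proteasome genes 24 rose and 1 fell (median 0.50). PSMA7, of the core particle, had 209.8, 210.2 and 236 and 630.0, 564 and 603 CPM (1.45 ± 0.08, GC-corrected 0.86), and the gene that fell was PSMD12, of the regulatory lid (-0.59 ± 0.10). Capsule was also above small spheroids in both groups, for 7 tubulins with 1 lower (median 0.31) and for 28 proteasome genes (median 0.69). TUBA1B stood at 436, 491 and 461 CPM in small spheroids (1.10 ± 0.08).

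Targets of the hypoxia-inducible factors moved in both directions. Of 37 genes on this list, the factor EPAS1 included, 16 rose, 6 fell and 15 did not pass, with a median of 0.22. EGLN3, an oxygen-sensing hydroxylase induced by low oxygen, had 10.9, 9.32 and 10.4 CPM in monolayer and 44.6, 64.7 and 64.5 in capsule (2.51 ± 0.16, adjusted p = 6.24e-10). NDRG1 had 322, 344 and 353 and 721, 1031 and 1026 CPM (1.45 ± 0.12), and CA9, the tumour carbonic anhydrase, had 1.11, 1.42 and 0.964 and 4.24, 4.54 and 6.48 (2.10 ± 0.26, GC-corrected 1.48). These 3 rose in all capsule libraries. VEGFA, the angiogenic factor, fell from 170.0, 172 and 159.7 to 106, 133 and 128 CPM (-0.45 ± 0.10, adjusted p = 0.00105), and CA12, another carbonic anhydrase, fell by 0.86 ± 0.10 on the log2 scale, chosen after its values were seen. Of the factors, EPAS1 fell by 0.94 ± 0.08 on the log2 scale. HIF1A changed by -0.64 ± 0.16, or -0.99 without capsule replicate 1, which at 195 CPM was near the monolayer values of 229, 206 and 208.

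For EGLN3, NDRG1 and CA9, capsule lay between monolayer and small spheroids. EGLN3 stood at 130.0, 177 and 128 CPM in small spheroids (-1.32 ± 0.14), NDRG1 at 2155, 2625 and 2177 (-1.32 ± 0.12) and CA9 at 11.9, 18.0 and 11.2 (-1.43 ± 0.21), each above all capsule libraries. Of these 3 formats VEGFA was lowest in capsule, with 268, 257 and 246 CPM in small spheroids (-1.07 ± 0.10). Of the 37 genes on the hypoxia list 22 were lower in capsule than in small spheroids and 4 higher (median -0.35). Glycolysis genes, of which 13 of 19 rose against monolayer and 4 fell (median 0.46, GC-corrected 10 and 4, median 0.22), included ENO1 at 1274, 1260.5 and 1392 and 3006, 2662 and 2672 CPM (1.09 ± 0.09) and LDHA (0.86 ± 0.13). HK2, the first enzyme of the path, fell by 0.57 ± 0.09 on the log2 scale. ENO1 and LDHA did not differ beyond the spread from small spheroids (-0.08 ± 0.09, adjusted p = 0.472, and 0.20 ± 0.13, adjusted p = 0.206).

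**Figure D4:**
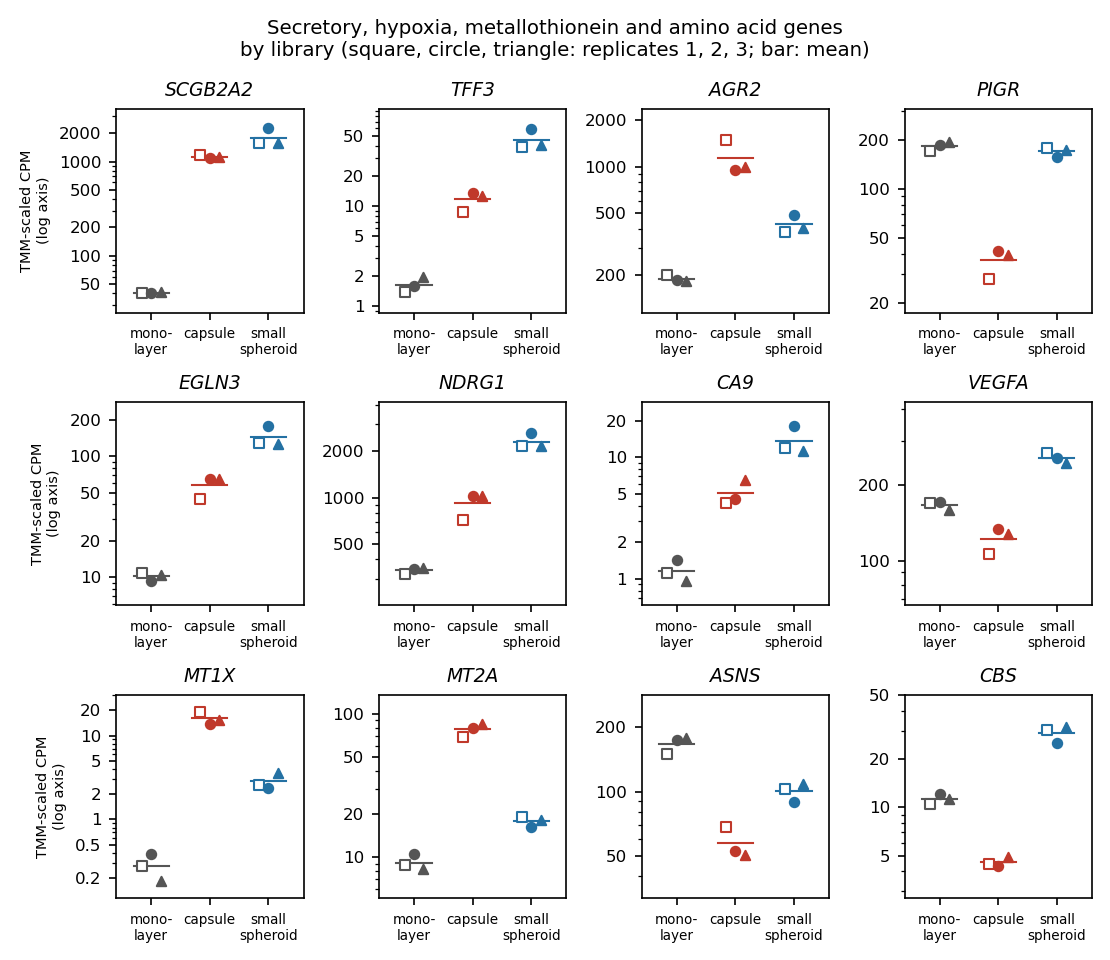
TMM-scaled CPM on log axes by library in monolayer, capsule and small spheroid, for secretory genes (top row), hypoxia targets (middle row), and metallothionein and amino acid genes (bottom row). Square, circle and triangle are replicates 1, 2 and 3, and the line is the mean. Among these formats capsule is highest for AGR2, MT1X and MT2A, lowest for PIGR, VEGFA, ASNS and CBS, and between the other formats for SCGB2A2, TFF3, EGLN3, NDRG1 and CA9.

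Markers of melanocytes, cardiac muscle, mesenchymal cells and leukocytes were present at low levels and were higher in monolayer than in capsule. Of 10 tested melanocyte markers 9 fell in capsule, and their sum was 67.5 to 136.5 CPM in monolayer and 12.9 to 17.8 in capsule. TYRP1, a pigment enzyme, had 1606 counts over the monolayer libraries and 2 over the capsule libraries, both in replicate 1, a ratio of 543 (95% Clopper-Pearson interval 150 to 4490, counting error only). GPR143, a melanosome receptor, had 243 and 0 counts, so it was at least 54.8-fold lower. MLANA, a melanosome protein, stood at 10.5, 25.4 and 7.67 CPM in monolayer and 0.316, 0.55 and 0.282 in capsule (-5.24 ± 0.52, and -4.55 without monolayer replicate 2). Of 11 cardiac muscle markers 10 fell, but the excess was in monolayer replicates 1 and 2, whose sums were 244.8 and 240.1 CPM, against 25.5 in replicate 3 and 13.4 to 16.6 in capsule. MYH6, a cardiac myosin, had 1242, 1723 and 0 counts in the monolayer libraries and 0, 3 and 0 in the capsule libraries. It was called by edgeR (adjusted p = 0.000571) and not by limma-voom (adjusted p = 0.45).

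Of 9 fibroblast or mesenchymal markers 5 fell and 1 rose, with sums of 81.4 to 148.7 CPM in monolayer and 36.1 to 54.0 in capsule. POSTN, a matrix protein of fibroblasts, had 1452 and 1 counts, the latter in capsule replicate 1, a ratio of 982 (95% interval 176 to 38800), and the lowest monolayer library was replicate 3, at 10.7 CPM. VIM, an intermediate filament of mesenchymal cells, had 42.0, 60.6 and 38.2 CPM in monolayer and 5.94, 2.82 and 5.07 in capsule (-3.34 ± 0.28). Of 4 leukocyte markers 3 fell, with sums of 59.4 to 63.9 and 23.6 to 31.9 CPM, among them CSF1R, a receptor of macrophages, at 21.4, 17.2 and 21.5 and 4.74, 5.30 and 6.34 CPM (-1.87 ± 0.16). Endothelial markers did not share this decrease. Of 7 tested, 3 were higher in capsule and 1 lower (median 0.06, near that of all genes), or 2 and 2 GC-corrected (median -0.09). Their sums were 44.5 to 48.7 CPM in monolayer and 49.7 to 58.2 in capsule. Erythroid markers did not reach 1 CPM in sum in any library of either format, and the formats overlapped. Mesenchymal sums were 49.66 to 69.45 CPM in small spheroids and 46.72 to 88.32 in large spheroids. Leukocyte sums there were 46.42 to 56.29 and 56.54 to 61.1 CPM, in that order. Fewer cells of a type and less RNA per cell cannot be told apart in such libraries. Among the 12 lowest fold changes of abundant genes, POSTN, TYRP1, GJA1, MLANA, PMEL and VIM belong to these lists, and GSTP1 (-3.89 ± 0.40, GC-corrected -4.63) and TMSB4X (-3.88 ± 0.40) shared the low value in monolayer replicate 3. TGFB2, a cytokine that fell from 18.3, 18.5 and 16.3 to 1.83, 1.65 and 1.62 CPM (-3.37 ± 0.14), did not, and its monolayer libraries were even. TEX19 (-2.99 ± 0.13), PARP14, a mono-ADP-ribosyltransferase of the interferon response (-3.31 ± 0.16), and SYP, which encodes synaptophysin (-3.07 ± 0.20), completed the 12, with monolayer levels of 34.5, 44.3 and 45.2, 11.9, 12.2 and 12.7 and 12.2, 12.1 and 14.3 CPM and capsule levels of 4.49, 5.78 and 5.42, 1.20, 1.17 and 1.34 and 1.07, 1.93 and 1.62, in that order.

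**Figure D5:**
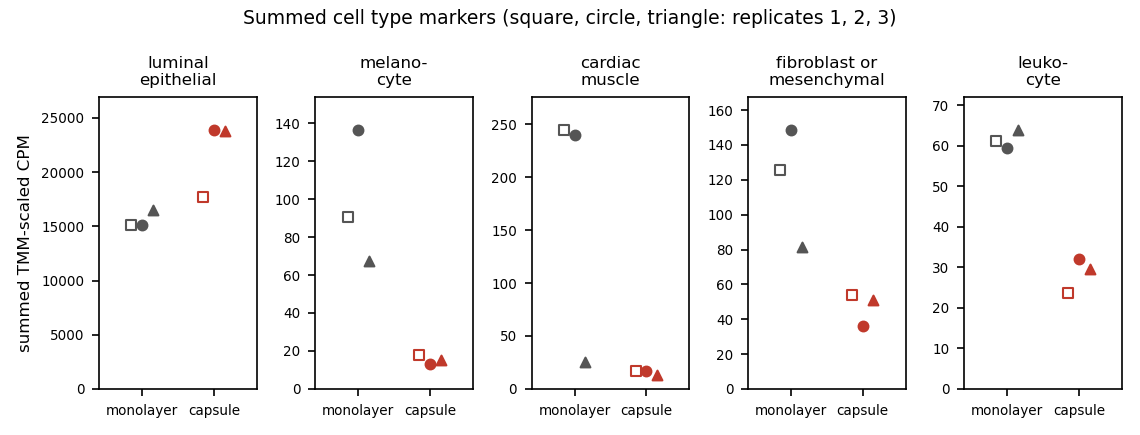
Summed TMM-scaled CPM of markers of 5 cell types (y axis, from 0) in each monolayer and capsule library. Square, circle and triangle are replicates 1, 2 and 3. Luminal markers reach 15080 to 23910 CPM, melanocyte markers at most 136.5, and cardiac markers are high in monolayer replicates 1 and 2 only.

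Interferon-stimulated and antigen presentation genes were lower in capsule as well. Of 23 interferon-stimulated genes 16 fell and 5 rose (median -0.83), and of 15 genes of MHC class I presentation 10 fell and 1 rose (median -0.44). BST2 (tetherin), which holds budding virus, had 38.9, 40.7 and 42.1 CPM in monolayer and 11.4, 11.6 and 10.6 in capsule (-1.86 ± 0.10, GC-corrected -2.51, adjusted p = 1.63e-10). SAMD9, an antiviral factor, had 32.4, 29.4 and 27.0 and 5.06, 5.57 and 4.29 CPM (-2.57 ± 0.17, GC-corrected -1.95), and IFIH1, a sensor of viral RNA, had 52.0, 52.8 and 52.9 and 19.9, 19.9 and 24.2 (-1.30 ± 0.11). Levels of these 3 genes were even among the monolayer libraries, as were the summed leukocyte markers (59.4 to 63.9 CPM). OAS1, a sensor of double-stranded RNA, rose instead, from 21.7, 24.1 and 23.5 to 65.6, 56.7 and 53.8 CPM (1.34 ± 0.09, chosen after its values were seen). TAPBP, which loads peptides on class I molecules, fell by 0.90 ± 0.11 on the log2 scale, and HLA-C, a class I heavy chain, had 4.09, 8.47 and 1.84 CPM in monolayer and 1.14, 0.963 and 0.634 in capsule (-2.40 ± 0.44, GC-corrected -3.09, and -1.67 without monolayer replicate 2). The part of melanocyte, mesenchymal or leukocyte RNA in these decreases was not tested.

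Targets of YAP and TEAD, the factors that respond to cell spreading, were lower too. Of 21 genes on this list, the factor TEAD4 included, 12 fell and 4 rose, with a median of -0.65 (GC-corrected -0.42). NT5E, a surface nucleotidase, had 56.3, 52.2 and 54.0 CPM in monolayer and 16.6, 10.6 and 11.5 in capsule (-2.06 ± 0.13, adjusted p = 6.28e-10). TEAD1, a DNA-binding partner of YAP, had 206, 187 and 191 and 78.0, 71.9 and 73.6 CPM (-1.39 ± 0.08), while TEAD4 rose from 18.3, 21.7 and 20.5 to 52.3, 63.6 and 67.0 (1.59 ± 0.10, GC-corrected 0.97) and YAP1 fell by 0.65 ± 0.08 on the log2 scale. The formats did not overlap for NT5E, TEAD1 or TEAD4. ANKRD1, a classic target, had 10.2, 8.08 and 2.94 CPM in monolayer, lowest in replicate 3, and 0.126, 0.206 and 0.141 in capsule (-5.42 ± 0.55, chosen after its values were seen). ANKRD1 is also made by cardiac and mesenchymal cells, whose markers were higher in monolayer, and their part in its decrease was not tested.

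Short structural RNAs made up 4 of the 12 highest fold changes. RN7SK, which restrains transcription elongation, had 0.663, 0.731 and 0.138 CPM in monolayer and 51.3, 51.1 and 121 in capsule (7.16 ± 0.90, GC-corrected 6.27). RMRP, an RNA of ribosomal RNA processing, had 0.221, 0.077 and 0 and 9.42, 11.6 and 31.7 CPM (7.47 ± 1.18, GC-corrected 6.35). RPPH1, the RNA of RNase P, had 1.11, 0.308 and 0.551 and 12.3, 10.9 and 49.8 CPM (5.28 ± 1.01, GC-corrected 4.03), and SCARNA2, a Cajal body RNA, rose by 4.77 ± 0.45 (3.50 GC-corrected). Capsule replicate 3 was the highest of its format in all 4, and in small spheroids replicate 3 was also far above replicates 1 and 2 (5.13, 5.00 and 52.3 CPM for RN7SK). Without capsule replicate 3 the value of RPPH1 was 4.22 and that of RMRP 6.73, and without monolayer replicate 1 that of RMRP was 8.48. EDN2, which encodes the vasoconstrictor endothelin-2, and PRRT4 were the remaining genes among the 12 highest that have not been described, at 4.22 ± 0.30 and 4.19 ± 0.25 (3.54 and 3.26 GC-corrected).

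Further lists are given by their counts. Of 21 nucleotide synthesis genes 11 rose and 8 fell (12 and 5 GC-corrected). Of 24 genes of homologous recombination and the Fanconi pathway 10 rose and 6 fell, but 14 and 3 GC-corrected and 10 and 10 without capsule replicate 1. Of 19 genes of the TCA cycle 7 rose and 7 fell. Unfolded protein response genes split evenly, 8 up and 8 down of 22 (8 and 5 GC-corrected), and heat shock genes fell in 10 of 22 cases and rose in 5. Cholesterol synthesis genes rose in 13 of 24 cases and fell in 2 (14 and 5 without capsule replicate 1, 12 and 4 GC-corrected). Of 23 PI3K and FOXO feedback genes 12 fell and 4 rose, but 8 fell and 8 rose GC-corrected, and of 24 lysosome genes 11 fell and 5 rose (16 and 5 GC-corrected). Junction genes rose in 9 and fell in 11 of 27 cases, and integrin and matrix genes rose in 10 and fell in 16 of 34. Among 15 keratins 10 rose and 1 fell, and 7 rose and 3 fell GC-corrected. KRT19, a luminal keratin, had 1711, 1772 and 1952 CPM in monolayer and 3039.6, 4575 and 4673 in capsule (1.18 ± 0.12, GC-corrected 0.40), and KRT18 fell by 0.22 ± 0.07 on the log2 scale. EPCAM, the epithelial adhesion molecule, rose from 129.5, 125 and 119 to 209.7, 200.4 and 214 CPM (0.74 ± 0.07).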

How the data were processed

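RNA sequencing libraries were made with a TruSeq kit from TRIzol-extracted RNA, per the labels' protocols. The authors deposited whole-number read counts per Entrez gene, assigned with featureCounts on hg38, per the submitters' processing notes; limma is also listed there. Alignment was with subread, per the file headers. The strand setting was not given in the sources used here. Deposited in 1 table were 16020 rows, 164 of them without a symbol (0.0705% of counts).

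In R 4.3.3, edgeR 4.0.16 scaled the counts by TMM, kept 15175 genes (filterByExpr, minimum count 10) and fitted all 12 libraries with 1 coefficient a format. Contrasts used the quasi-likelihood F test with Benjamini-Hochberg adjustment over all genes, called at adjusted p below 0.05, and errors beside log2 fold changes are SE. Levels are TMM-scaled CPM for each library. Fold bounds use 3 counts, and ratios have 95% intervals. Alternatives were DESeq2 1.42.0, limma-voom (3.58.1), other scalings, no filter, the 6 libraries alone, a replicate block, each library left out, and a per-library spline correction (5 degrees of freedom) for GC content and transcript length from GENCODE, known for 96.46% of genes. The fit was tested on simulated data. Promoters and motif windows of 250 bases are from RefSeq.

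Named genes are the 12 highest and 12 lowest fold changes among called, non-overlapping genes of at least 10 CPM in the higher format with a proper symbol, the 3 smallest adjusted p of each pathway list in the direction of its median, and a fixed set (CA9, CCNB1, CDH1, CDKN1A, EGFR, ERBB2, ERBB3, FASN, FN1, GRB7, HMGCS1, IFIT1, KRT18, MCM2, MKI67, SCGB1D2, SCGB2A2, TOP2A, TXNIP, UHRF1, VEGFA, VIM). Not every such gene is named, and any further gene, including list members that go against their list, was chosen after its values were seen. The libraries compared, the lists and this rule were chosen with earlier results of these data known.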

Additional observations from a re-analysis of the deposited data

How the results depend on the processing

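Counts of called genes for capsule against monolayer stayed within 1.5 times of those reported under all 15 alternatives. They ran from 9165 (the 6 libraries alone) to 10704 (without capsule replicate 1), with 10066 by DESeq2, 10012 by limma-voom, 9620 GC-corrected and 10264 without the filter on low counts. Leaving out 1 library gave 9285 to 10704 calls, and 7326 to 7869 for capsule against small spheroid. Deviations of same-numbered libraries correlated at 0.0705, -0.0343 and 0.0411, and capsule replicate 2 correlated best with monolayer replicate 3 (0.0877). These correlations pool all genes, so they cannot exclude a batch shared by same-numbered libraries. Cardiac marker sums were 244.8, 240.1 and 25.49 CPM in monolayer replicates 1 to 3 and 87.04, 71.93 and 15.97 in large spheroids. Capsule (16.56, 16.51 and 13.38) and small spheroids (15.8, 12.57 and 18.13) had no such gap. With the replicate block 9305 genes were called in the 6 libraries and 9848 in all 12, and of the named genes TRIB3 lost its call (0.17) and MSMO1 gained one (-0.37), both in the 6 libraries. Named genes called in either of the fits compared changed direction only under GC and length correction, which gave 0.25 for MKI67, 0.04 for KIF14, 0.40 for ASPM, 0.05 for NDUFS1, -0.54 for MUC1, -0.26 for TRIB3 and -0.42 for GRB7 (MKI67 and GRB7 had no call without it); the cause was not tested. The medians of the 25 lists carried through all 15 alternatives kept their sign. Under GC and length correction 18 of these medians moved by at least their spread among libraries. Some lists outside these 25 changed sign with that correction. Examples are PI3K and FOXO feedback (median -0.308 to 0.002), the TCA cycle (-0.003 to 0.167) and the unfolded protein response (0.058 to -0.013).

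Depth limits genes near 0 counts, whose ratios carry wide counting intervals. Titles with and without UP divide the libraries exactly as monolayer and capsule do, so no fit can separate them. Without capsule replicate 1 the format rests on 2 libraries, and the spread is pooled over all formats.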

Other observations

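Genes of xenobiotic and redox metabolism were split. CYP1A1, an oxidase induced through the aryl hydrocarbon receptor (AhR), had 1.88, 2.08 and 2.25 CPM in monolayer and 45.3, 25.7 and 26.0 in capsule (3.96 ± 0.22, adjusted p = 2.24e-10), and CYP1B1, its relative, had 11.3, 11 and 9.46 and 67.8, 35.4 and 31.3 (2.08 ± 0.22). TIPARP and AHRR, which damp the same receptor, fell by 0.97 ± 0.13 and 0.81 ± 0.10 on the log2 scale. Of 7 tested AhR genes 3 rose and 4 fell. Of 27 genes of NRF2, the factor of the oxidative stress response, and of glutathione, 13 rose and 8 fell, and 7 and 11 after GC correction. The aldo-keto reductases AKR1C1 and AKR1C2 had 6.52, 5.50 and 5.05 and 18.6, 16.2 and 17.2 CPM in monolayer and 149, 31.6 and 31.4 and 323, 112 and 106 in capsule. Capsule replicate 1 was the highest for both, and their log2 fold changes of 3.65 ± 0.47 and 3.38 ± 0.32 became 2.48 and 2.66 without it. The counting may split reads of these near-identical copies. GCLM, of glutathione synthesis, fell from 81.9, 79.5 and 77.7 to 38.7, 32.1 and 37.7 CPM (-1.14 ± 0.09), and FTL, the ferritin light chain, from 189, 211 and 194 to 90.7, 94.3 and 102 (-1.05 ± 0.07, GC-corrected -1.71). The genes named here were chosen after their values were seen, apart from those that the rule for named genes gives.

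Capsule replicate 1 also stood apart in cholesterol synthesis. MSMO1, a sterol oxidase (77.2, 36.5 and 42.5 CPM in capsule, 67.0, 60.7 and 59.1 in monolayer), and IDI1, an isomerase of the isoprenoid path (101, 48.4 and 52.8 and 80.2, 74.8 and 74.5), were above monolayer in replicate 1 and below it in replicates 2 and 3. Without replicate 1 they changed by -0.65 and -0.59, and both passed the test, which neither did with it (-0.26 and -0.18). MVK, mevalonate kinase, rose with or without that library (1.17 ± 0.09 and 1.14). Among integrins and matrix genes, ITGB4 and ITGA3, the receptor chains for laminin, rose by 1.82 ± 0.17 and 1.16 ± 0.09, while ITGA1, a collagen receptor chain, and COL12A1, a fibril-associated collagen, fell by 1.04 ± 0.09 and 1.76 ± 0.13 on the log2 scale (GC-corrected -0.43 and -1.36).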
